A study of Mus musculus with 6 samples.

Results

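The 40 genes described here mark the endothelium, the cell layer that lines blood vessels, or carry its adhesion and growth signals. They were chosen by name, and all 40 had at least 1 probe set among the 18029 genes that the array table names. They were sorted by role into 19 identity genes, 5 leukocyte adhesion genes, 9 angiogenic ligands and 7 angiogenic receptors. Expression was measured in hearts of 3 Tmbim1 KO mice and 3 Flox wild type mice, 1 Affymetrix array per mouse. Both groups were C57BL/6 mice, 8 weeks old per the design text, whose hearts were taken after 2 weeks of aortic banding (named aortic binding surgery in the labels), a constriction of the aorta that makes the left ventricle pump against a higher pressure. How Tmbim1 was deleted, in which cells, and whether the Flox wild type mice were littermates is not given in the sources used here. Unoperated hearts were not analysed here, so every difference is one between genotypes in banded hearts. The comparison asks how loss of TMBIM1, a membrane protein of endosomes and lysosomes, alters the heart under pressure load.

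In the heart, capillary endothelial cells lie beside almost every muscle fibre and pass fatty acids and oxygen to it. Vascular endothelial growth factors act through the receptors KDR, FLT1 and FLT4, angiopoietins through TEK, apelin through its own receptor APLNR, and the Notch ligands DLL4 and JAG1 through NOTCH1. These pathways set vessel growth, stability and tone. Endothelial cells exposed to inflammatory cytokines display selectins and the immunoglobulin-type molecules ICAM1 and VCAM1, on which leukocytes roll and stop.

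Values are log2 signals as deposited, after RMA, an array normalization that puts all arrays on 1 distribution, so a difference of 1 is a doubling. For a gene with several probe sets the brightest by its mean over the 6 arrays stands for it, here called main, and levels are compared between mice and never between genes. Differences are knockout minus wild type, with n = 3 mice in each group, and adjusted p-values are those of limma over all 38195 probe sets, with a threshold of 0.05. Means are given ± SD (n = 3).

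Tmbim1 had 7.53, 7.49 and 7.56 in the knockout hearts, against 8.58, 8.38 and 8.33 in the wild type hearts. It fell by 0.91 on the log2 scale (SE 0.10, adjusted p = 0.00579), and without knockout replicate 2 the adjusted p was 0.0512. A pair of arrays stood apart. Knockout replicate 1 carried atrial genes, with Myl7 at 12.86, against 3.90 on the highest of the 5 other arrays, and wild type replicate 3 lay at -36.97 on the first principal component, where the other 2 wild type arrays lay at -8.48 and -9.65. The array medians lay between 4.24 and 4.28, and Sele, Selp and Esm1 were the 3 members whose mean was below all of them. The 9 cardiomyocyte markers measured averaged 12.91 to 12.96 per array in knockout hearts and 13.04 to 13.12 in wild type hearts. Their groups did not overlap for 8 of the 9, all lower in knockout hearts, where 9.38% of all main probe sets lay wholly lower. Of the 9, 0 passed the threshold, and their part in the endothelial values was not tested. In bulk tissue fewer endothelial cells and less RNA of a gene per cell cannot be told apart.

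Of the 40 genes, 0 rose and 0 fell by limma with adjustment over all probe sets, where 0.549% of all 18029 main probe sets passed. The smallest adjusted p of a member was 0.0852, that of Selp. At an unadjusted p under 0.05 the members numbered 9, which is 22.5% of them, against 11.5% of all main probe sets. Of these 9, 8 were higher in knockout hearts (20% of the members, against 5.19% of all main probe sets) and 1, Apln, was lower (2.5% of the members, against 6.33%). The 3 knockout values lay wholly on 1 side of the 3 wild type values for 10 members, against 16.7% of all main probe sets, with Selp, Vcam1, Cldn5, Sox17, Plvap, Nos3, Pgf and Angpt2 above and Apln and Pecam1 below. That is 8 higher and 2 lower, where 7.34% of all main probe sets lay wholly above and 9.38% wholly below. The median difference was 0.10 over the members and -0.00 over all main probe sets, and 27 members (67.5%) had a positive and 13 a negative difference, where 49.4% of all main probe sets were positive. Since the genes were listed with earlier results of these data known, these shares describe the list and carry no test of it.

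The arrays resolved differences of moderate size. The 95% intervals of the 40 differences reached between 0.20 and 1.05 to either side, with a median of 0.29. For 28 members the interval left out a change of 1.5-fold in either direction, and for 35 it left out a 2-fold change.

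**Figure D1:**
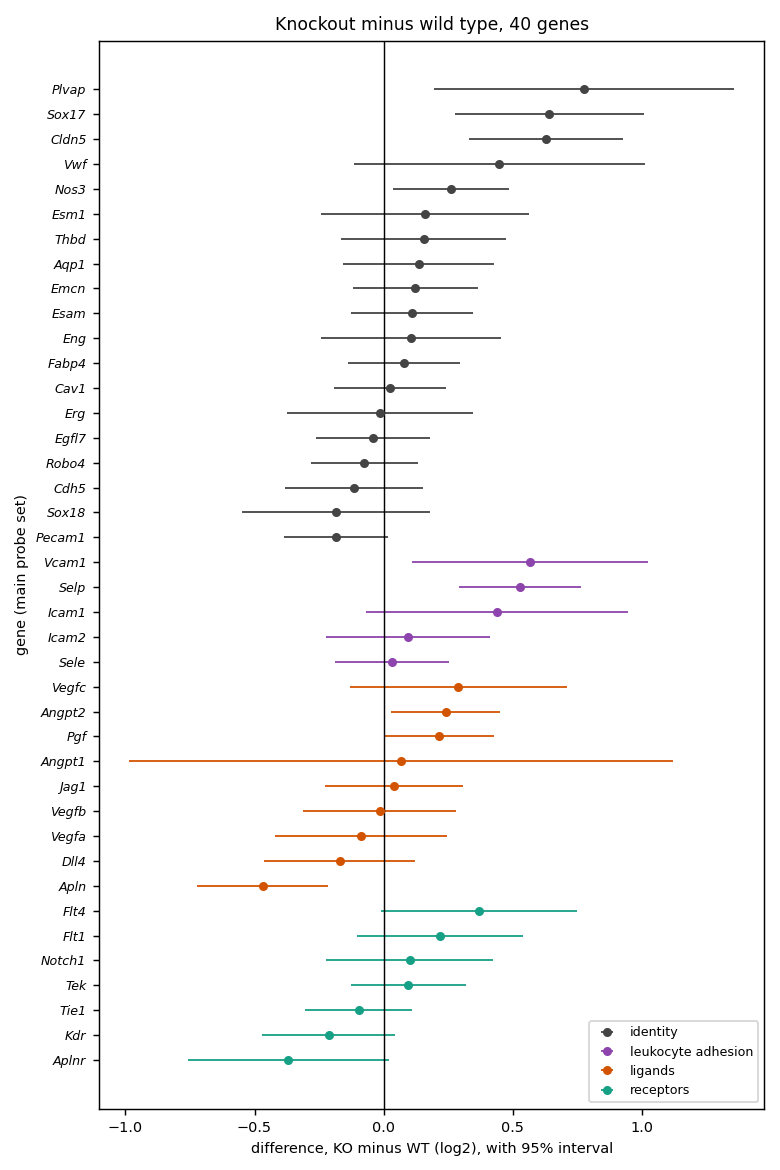
Knockout minus wild type difference on the log2 scale (horizontal axis) with its 95% interval for each of the 40 genes, sorted by role and size. The differences run from -0.47 (Apln) to 0.78 (Plvap), and the interval of Angpt1, from -0.99 to 1.12, is the widest.

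The bases before the transcription start are shown for the 3 members with the smallest unadjusted p, Selp, Cldn5 and Apln, and for the other leukocyte adhesion genes that have an entry, Icam1 and Sele, so that the promoters of a group whose 5 differences were all positive can be read side by side. Each run is the 250 bases before the start in the RefSeq table of GRCm38.p6, on the strand of the gene, and capitals mark the motif matches described after them.
Selp (chr1:164115014-164115263, plus strand): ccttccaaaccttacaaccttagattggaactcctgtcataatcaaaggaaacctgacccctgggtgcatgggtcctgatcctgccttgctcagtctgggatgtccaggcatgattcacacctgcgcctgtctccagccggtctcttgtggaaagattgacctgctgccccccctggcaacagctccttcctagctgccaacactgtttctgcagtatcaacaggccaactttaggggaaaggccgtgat
Sele (chr1:164047984-164048233, plus strand): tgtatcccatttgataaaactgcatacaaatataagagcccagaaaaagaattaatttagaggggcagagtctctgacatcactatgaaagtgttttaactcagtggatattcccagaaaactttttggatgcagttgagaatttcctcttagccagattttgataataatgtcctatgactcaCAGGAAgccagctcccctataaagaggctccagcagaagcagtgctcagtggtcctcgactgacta
Icam1 (chr9:21015690-21015939, plus strand): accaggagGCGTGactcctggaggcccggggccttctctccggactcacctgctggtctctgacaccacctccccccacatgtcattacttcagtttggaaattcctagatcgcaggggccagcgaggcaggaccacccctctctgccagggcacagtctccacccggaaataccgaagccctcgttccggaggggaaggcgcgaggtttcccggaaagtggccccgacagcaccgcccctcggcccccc
Cldn5 (chr16:18776597-18776846, plus strand): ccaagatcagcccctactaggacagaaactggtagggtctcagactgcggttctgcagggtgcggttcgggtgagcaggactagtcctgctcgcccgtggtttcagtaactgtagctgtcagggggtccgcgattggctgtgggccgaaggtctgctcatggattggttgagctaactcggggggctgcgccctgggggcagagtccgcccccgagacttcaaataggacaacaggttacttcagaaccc
Apln (chrX:48034854-48035103, minus strand): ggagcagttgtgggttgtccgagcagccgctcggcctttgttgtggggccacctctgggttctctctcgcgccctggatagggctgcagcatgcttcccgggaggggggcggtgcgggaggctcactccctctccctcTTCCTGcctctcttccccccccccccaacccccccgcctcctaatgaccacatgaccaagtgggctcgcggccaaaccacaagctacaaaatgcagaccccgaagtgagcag

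Both strands were searched for CAGGAA, a core bound by ETS factors such as ERG, for ACGTG or GCGTG, the core bound by hypoxia-inducible factors, for ACAAT, a core bound by SOX factors, and for the NF-kB consensus. CAGGAA was found in Sele at positions -66 to -61 from the start and, on the other strand, in Apln at -112 to -107. GCGTG was found in Icam1 at -242 to -238. These letters were in none of the other windows shown, and no match overlapped another. The table's windows, which run on past the start, were there for 25 of the 40 genes, 32 windows in all. CAGGAA stood in 37.5% of these 32, against 25.7% of all 32851 windows, the hypoxia core in 37.5% against 38.6%, ACAAT in 15.6% against 27.7%, and the NF-kB consensus in 12.5% against 7.25%. The NF-kB consensus searched was GGGRNNYYCC, where R is A or G, Y is C or T and N is any base. Exact matches to it lay in the windows of Dll4, Flt1, Kdr and Vegfa, and in none of the adhesion genes shown. Sites that depart from it were not counted, so a window without a match may still hold an NF-kB site. All matches given are letters in a window and not measured binding.

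Among the 19 identity genes, Plvap, Sox17, Cldn5 and Vwf had the largest differences, all positive, while Pecam1 and Cdh5, which all endothelial cells carry, had small negative ones. Of the 19, 0 passed and 4 were higher at an unadjusted p under 0.05, with a median difference of 0.11. That median was 0.03 without knockout replicate 3, 0.06 without wild type replicate 1 and 0.17 without knockout replicate 2. Cldn5, the claudin of endothelial tight junctions, had 7.59, 7.30 and 7.55 in knockout hearts, against 7.10, 6.65 and 6.80 in wild type hearts. The groups did not overlap, with means of 7.48 ± 0.16 and 6.85 ± 0.23 in knockout and wild type, and the difference was 0.63 (SE 0.13, adjusted p = 0.0998). Sox17, a transcription factor of arterial endothelium, had 7.26, 6.76 and 7.33 in knockout hearts, against 6.69, 6.25 and 6.48 in wild type hearts. Its lowest knockout mouse, replicate 2, lay just above the highest wild type mouse, at a difference of 0.64 (SE 0.16, adjusted p = 0.169). A dimmer probe set of Sox17 was at 0.55 (adjusted p = 0.279). Its groups overlapped narrowly, with knockout replicate 2 at 5.6007 and wild type replicate 3 at 5.6013.

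Nos3, the endothelial nitric oxide synthase that relaxes vessels, had 7.50, 7.30 and 7.56 in knockout hearts, against 7.18, 7.20 and 7.19 in wild type hearts. The wild type mice were nearly identical and all knockout mice lay above them, with a difference of 0.26 (SE 0.10, adjusted p = 0.376). Plvap, the diaphragm protein of fenestrated and venous endothelium, had 6.55, 5.27 and 5.65 in knockout hearts, against 5.11, 4.90 and 5.14 in wild type hearts. Knockout replicate 1, the array with atrial genes, was the highest by a wide margin. The difference of 0.78 (SE 0.26, adjusted p = 0.298) was 0.41 without that array. Vwf, the von Willebrand factor of larger vessels and platelets, had 7.64, 6.48 and 6.80 in knockout hearts, against 6.77, 6.30 and 6.49 in wild type hearts. The same knockout mouse was highest here too, the groups overlapped, and the difference of 0.45 (SE 0.25, adjusted p = 0.602) was 0.11 without it.

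Pecam1, the adhesion molecule of all endothelial junctions, had 7.13, 7.07 and 7.15 in knockout hearts, against 7.35, 7.29 and 7.27 in wild type hearts. The groups were tight and did not overlap, but the difference was only -0.18 (SE 0.09, adjusted p = 0.523, 95% interval -0.39 to 0.02). Cdh5, the cadherin of the same junctions, had 8.21, 8.02 and 8.41 in knockout hearts, against 8.30, 8.24 and 8.44 in wild type hearts. The groups overlapped, at -0.11 (SE 0.12, adjusted p = 0.830, 95% interval -0.38 to 0.15).

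The other 12 identity genes had unadjusted p-values of 0.285 or more, and their groups overlapped. They ran from -0.18 for Sox18, a transcription factor of vascular and lymphatic endothelium, to 0.16 for Esm1, a proteoglycan of sprouting tip cells. Between these were the junction molecule Esam at 0.11, the sialomucin Emcn at 0.12, the TGF-beta co-receptor Eng at 0.11 and the anticoagulant receptor Thbd at 0.16. The water channel Aqp1, which red blood cells also carry, was at 0.14, the fatty acid binding protein Fabp4, shared with adipocytes, at 0.08, and the caveolar coat protein Cav1 at 0.03. The guidance receptor Robo4 was at -0.07, the secreted matrix protein Egfl7 at -0.04 and the ETS factor Erg at -0.01.

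**Figure D2:**
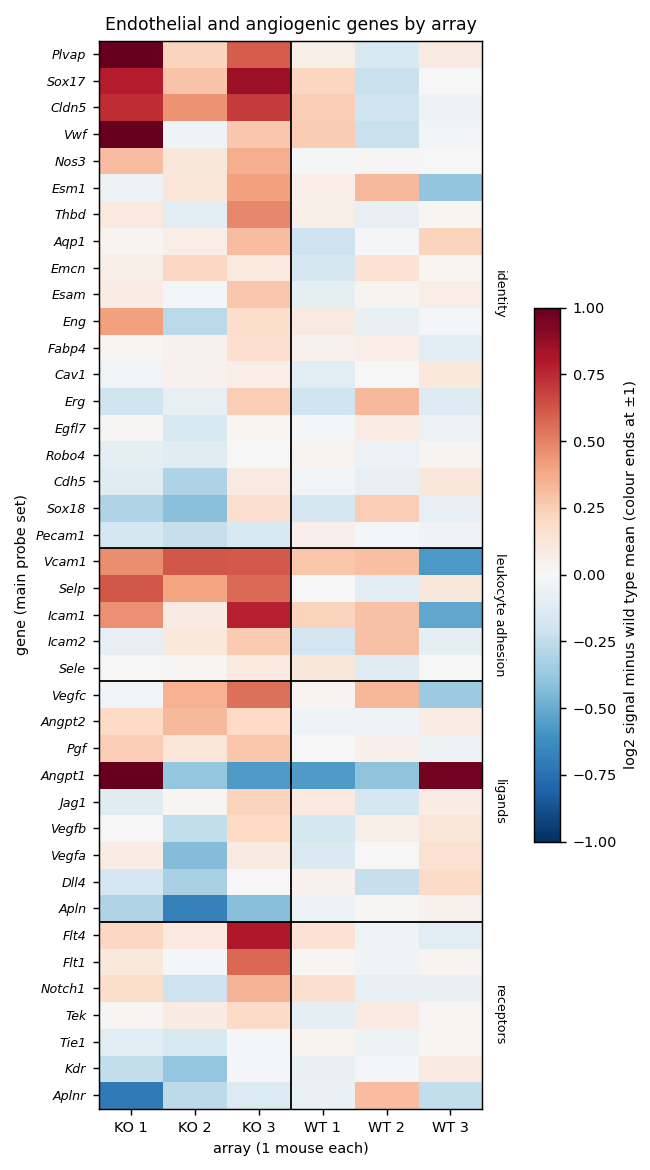
Each of the 40 genes (rows, by role) on each array (columns, knockout left of wild type), coloured by its log2 signal minus the wild type mean of that gene, with colours ending at -1 and 1. Cldn5, Sox17 and Selp are red on all 3 knockout arrays, Apln is blue on all 3, and Angpt1 is red on knockout replicate 1 and wild type replicate 3.

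All 5 leukocyte adhesion genes had a positive difference, with a median of 0.44, but 0 passed and 2 had an unadjusted p under 0.05. The 14 other leukocyte adhesion and recruitment genes described further on had a median of -0.02. Leaving out wild type replicate 3 gave a median of 0.18, and leaving out knockout replicate 3 gave 0.27. Selp, the P-selectin on which leukocytes and platelets begin to roll, had 4.42, 4.19 and 4.36 in knockout hearts, against 3.79, 3.69 and 3.91 in wild type hearts. The groups lay clearly apart, with means of 4.32 ± 0.12 and 3.79 ± 0.11 in knockout and wild type, and the difference was 0.53 (SE 0.11, adjusted p = 0.0852). Its signal was low, and a still dimmer second probe set was at -0.04 (adjusted p = 0.944). Vcam1, which binds integrins of monocytes and lymphocytes, had 6.81, 6.96 and 6.95 in knockout hearts, against 6.61, 6.64 and 5.76 in wild type hearts. The groups did not overlap, and wild type replicate 3 was far below the rest. The difference of 0.57 (SE 0.20, adjusted p = 0.340) was 0.28 without that array, and 2 dimmer probe sets of Vcam1 were at 0.23 and 0.21.

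Icam1, the ligand of leukocyte beta-2 integrins, had 6.04, 5.66 and 6.36 in knockout hearts, against 5.81, 5.88 and 5.06 in wild type hearts. The groups overlapped and wild type replicate 3 was again lowest, so that the difference of 0.44 (SE 0.23, adjusted p = 0.558) was 0.18 without it and 0.27 without knockout replicate 3. Sele, the E-selectin made by cytokine-activated endothelium, had 2.29, 2.31 and 2.39 in knockout hearts, against 2.41, 2.18 and 2.30 in wild type hearts. Its mean was under the lower quartile of each of the arrays, and the difference was 0.03 (SE 0.10, adjusted p = 0.956). Icam2, a constitutive ligand of the same integrins, was at 0.09 (adjusted p = 0.891).

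Wild type replicate 3 was also lowest for markers of other cells that carry VCAM1 or ICAM1. The 9 macrophage markers summed on the linear scale to between 3763 and 4262 signal units in knockout hearts and between 2839 and 3769 in wild type hearts, and the 9 fibroblast markers to between 14196 and 16181 and between 7200 and 13848. All 9 macrophage differences were positive, 5 of them at an unadjusted p under 0.05 and 0 past the threshold. The 7 platelet and megakaryocyte markers, a source of Selp and Vwf, summed to between 433 and 497 units in knockout hearts and between 375 and 453 in wild type hearts, with 0 at an unadjusted p under 0.05. The part of these cells in the adhesion gene values was not tested.

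**Figure D3:**
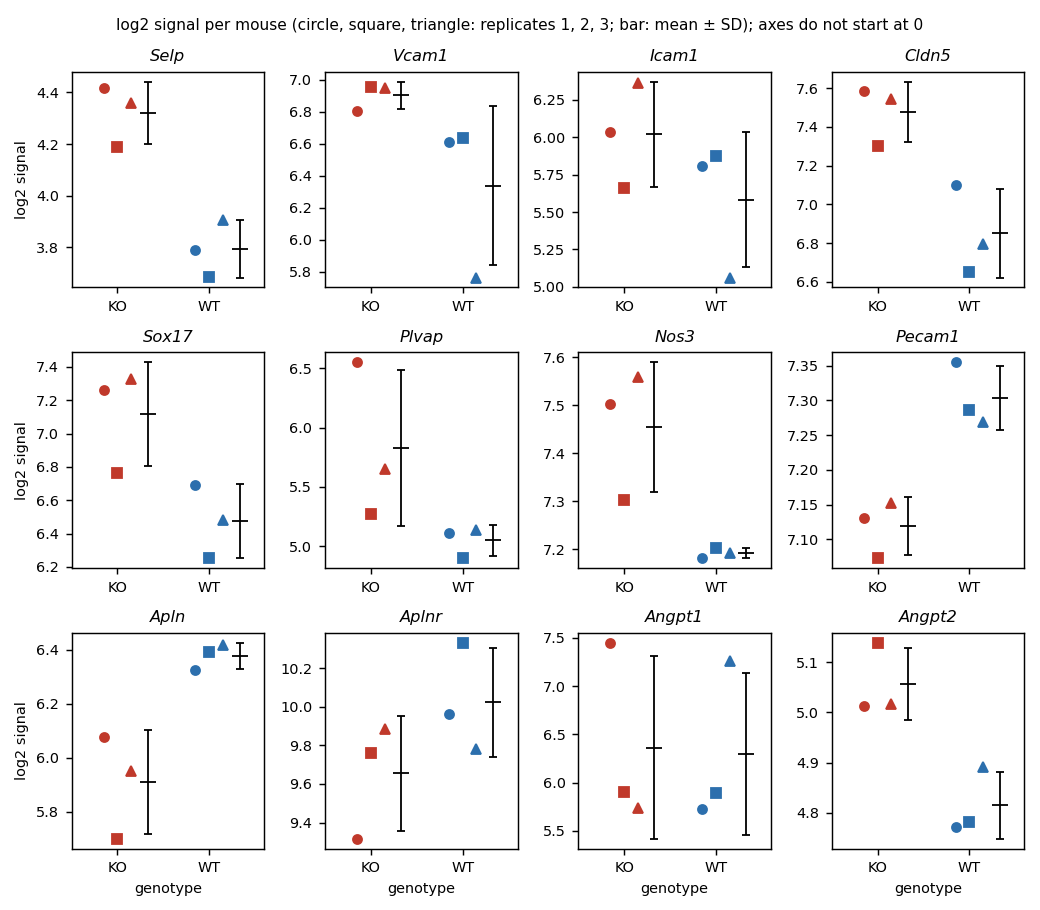
The log2 signal of 12 genes in each mouse (circle, square and triangle are replicates 1, 2 and 3; the bar beside them is the mean ± SD, n = 3), knockout left of wild type, with vertical axes that do not start at 0. Selp, Vcam1, Cldn5, Sox17, Plvap, Nos3 and Angpt2 do not overlap between the genotypes and are higher in knockout hearts, Pecam1 and Apln are lower, and Icam1, Aplnr and Angpt1 overlap.

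Of the 9 angiogenic ligands 0 passed, 2 were higher and 1 lower at an unadjusted p under 0.05, and the median difference was 0.04. The lower one was Apln, apelin, a peptide that widens vessels, strengthens cardiac contraction and marks endothelial tip cells. Apln had 6.08, 5.70 and 5.95 in knockout hearts, against 6.33, 6.39 and 6.42 in wild type hearts. All 3 knockout mice lay below the narrow wild type range, with means of 5.91 ± 0.19 and 6.38 ± 0.05 in knockout and wild type and a difference of -0.47 (SE 0.11, adjusted p = 0.150). It was -0.55 without knockout replicate 1 and -0.45 without wild type replicate 3. Its receptor gene Aplnr had 9.32, 9.76 and 9.89 in knockout hearts, against 9.96, 10.33 and 9.78 in wild type hearts. The groups overlapped through wild type replicate 3, and the difference was -0.37 (SE 0.17, adjusted p = 0.501). It was -0.20 without knockout replicate 1, the lowest mouse, and -0.22 without wild type replicate 2, the highest. A dimmer Aplnr probe set had 6.24, 6.53 and 6.56 in knockout hearts, against 6.80, 7.10 and 6.72 in wild type hearts, which did not overlap, at -0.43 (SE 0.13, adjusted p = 0.243).

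Placental growth factor and angiopoietin 2 were the 2 higher ligands. Pgf, a ligand of FLT1, had 5.80, 5.67 and 5.83 in knockout hearts, against 5.55, 5.60 and 5.50 in wild type hearts. The groups did not overlap, at 0.22 (SE 0.09, adjusted p = 0.460). Angpt2, which antagonises ANGPT1 at TEK and loosens vessels, had 5.01, 5.14 and 5.02 in knockout hearts, against 4.77, 4.78 and 4.89 in wild type hearts. They too lay apart, at 0.24 (SE 0.09, adjusted p = 0.393), and a dimmer probe set of Angpt2 was at 0.16.

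Angpt1, the stabilising agonist of TEK, had 7.45, 5.91 and 5.73 in knockout hearts, against 5.73, 5.89 and 7.26 in wild type hearts. Knockout replicate 1 and wild type replicate 3 stood high and the other 4 mice lay close together, so that the difference of 0.07 (SE 0.47, adjusted p = 0.982) describes neither group, and without both arrays it was 0.01. The lower of these 2 arrays exceeded the highest of the other 4 by 1.35, the largest such gap of all 38195 probe sets, the next being 0.72 for the mitochondrial membrane gene Immt. Stard10, listed here as an atrial marker, and Plagl1, listed as an endocardial one, had ranks 4 and 6, with gaps of 0.65 and 0.51. This ranking was made after the values were seen, and what the pattern reflects was not tested. A much dimmer Angpt1 probe set was also highest on the same arrays, with 3.63, 3.32 and 2.71 in knockout hearts, against 3.13, 3.14 and 3.62 in wild type hearts.

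Vegfa, the main driver of vessel growth, had 8.06, 7.56 and 8.08 in knockout hearts, against 7.85, 7.98 and 8.14 in wild type hearts. The groups overlapped, with the lowest value in a knockout and the highest in a wild type heart, at -0.09 (SE 0.15, adjusted p = 0.905, 95% interval -0.42 to 0.25). A second, dimmer Vegfa probe set had 6.41, 6.10 and 6.25 in knockout hearts, against 5.79, 5.95 and 6.10 in wild type hearts, where replicate 2 of the knockout only just cleared the wild type range, at 0.30 (SE 0.12, adjusted p = 0.388). The 2 probe sets of Vegfa therefore differed in sign. Vegfb, a ligand of FLT1 abundant in heart, was at -0.02, the lymphatic growth factor Vegfc at 0.29, Dll4 at -0.17 and Jag1 at 0.04, with adjusted p-values between 0.671 and 0.987. Vegfc was at 0.11 without wild type replicate 3, 0.16 without knockout replicate 3, 0.45 without knockout replicate 1 and 0.46 without wild type replicate 2. Dll4 was at -0.07 without wild type replicate 3, -0.09 without knockout replicate 2 and -0.29 without wild type replicate 2.

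None of the 7 angiogenic receptors passed or had an unadjusted p under 0.05 at the main probe set, and their median difference was 0.10. Kdr, the main signalling receptor for VEGFA, had 8.69, 8.55 and 8.92 in knockout hearts, against 8.86, 8.91 and 9.02 in wild type hearts. The groups overlapped through knockout replicate 3, at -0.21 (SE 0.12, adjusted p = 0.579, 95% interval -0.47 to 0.04). Flt1, a high-affinity VEGF receptor that also exists as a soluble decoy, had 7.83, 7.72 and 8.30 in knockout hearts, against 7.74, 7.69 and 7.76 in wild type hearts. At this brightest probe set the difference was 0.22 (SE 0.14, adjusted p = 0.674), and 0.04 without knockout replicate 3, the highest mouse.

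Flt1 has 3 dimmer probe sets, and on each of them all knockout mice lay above all wild type mice. The first had 7.79, 7.99 and 8.16 in knockout hearts, against 7.54, 7.45 and 7.70 in wild type hearts, at 0.42 (SE 0.12, adjusted p = 0.215). On the second, the values were 6.19, 6.40 and 6.77 in knockout hearts, against 6.00, 5.76 and 5.95 in wild type hearts, at 0.55 (SE 0.15, adjusted p = 0.176). The third was at 0.30 (SE 0.10, adjusted p = 0.315). Which Flt1 transcripts each probe set reads was not tested.

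Tek, the angiopoietin receptor, had 8.01, 8.08 and 8.19 in knockout hearts, against 7.90, 8.08 and 8.01 in wild type hearts, an overlap at 0.10 (SE 0.10, adjusted p = 0.826, 95% interval -0.13 to 0.32). Notch1 had 7.16, 6.78 and 7.33 in knockout hearts, against 7.15, 6.91 and 6.91 in wild type hearts, also overlapping, at 0.10 (SE 0.14, adjusted p = 0.885). Flt4, the receptor of lymphatic endothelium, was at 0.37 (adjusted p = 0.490), with knockout replicate 3 highest at 7.27 and a difference of 0.15 without it. The 5 lymphatic markers measured summed on the linear scale to between 330 and 408 units in knockout hearts and between 220 and 266 in wild type hearts. Such a sum is carried mostly by the brightest genes. Of the 5, 4 had a positive difference and 1, Prox1, a negative one, at -0.91 (adjusted p = 0.0448). The part of lymphatic cells in Flt4 was not tested. Tie1, the orphan partner of TEK, was at -0.10 (adjusted p = 0.811).

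**Figure D4:**
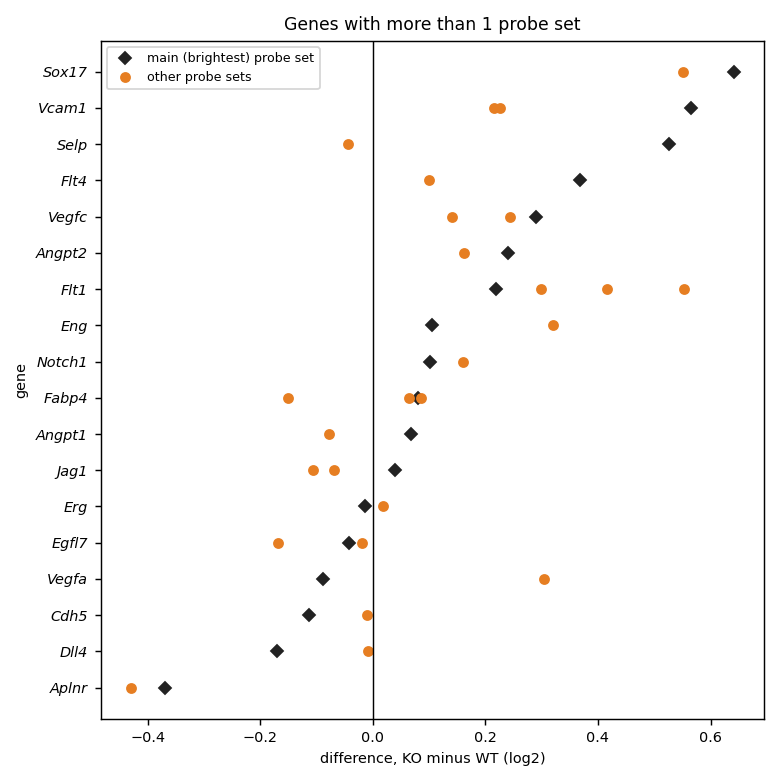
Knockout minus wild type difference (log2) of every probe set of the 18 members that have more than 1, with diamonds for the brightest probe set and circles for the others. All 3 circles of Flt1 lie right of its diamond, both probe sets of Aplnr lie left of 0, and those of Vegfa and of Selp lie on opposite sides of 0.

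The 18 members with more than 1 probe set had 26 besides the brightest. Of these 26, 0 passed by limma, 6 were higher and 1 lower at an unadjusted p under 0.05, and 19 had the sign of the brightest. Besides those of Flt1, Sox17, Vegfa and Aplnr, the 1 remaining was a dimmer probe set of Eng, at 0.32 (adjusted p = 0.470).

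The knockout mice also differed among themselves. Replicate 3 was the highest knockout array for 30 of the 40 genes (75%, against 33.5% of all main probe sets), and replicate 2 was the lowest for 25 (62.5%, against 31.2%). The mean log2 signal of the 40 genes was 7.31, 7.13 and 7.40 in knockout hearts, against 7.15, 7.17 and 7.15 in wild type hearts. Knockout replicate 2 thus lay below all wild type mice while the 2 other knockout mice lay above them. The identity genes alone averaged 7.98, 7.75 and 8.03 in knockout hearts, against 7.77, 7.77 and 7.75 in wild type hearts, and the adhesion genes 5.46, 5.41 and 5.63, against 5.25, 5.30 and 4.95. Ligands averaged 6.54, 6.28 and 6.48 in knockout hearts, against 6.33, 6.38 and 6.56 in wild type hearts, and receptors 7.79, 7.75 and 8.12, against 7.89, 7.90 and 7.83. Of these 4 groups only the adhesion genes had all knockout means above all wild type means.

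**Figure D5:**
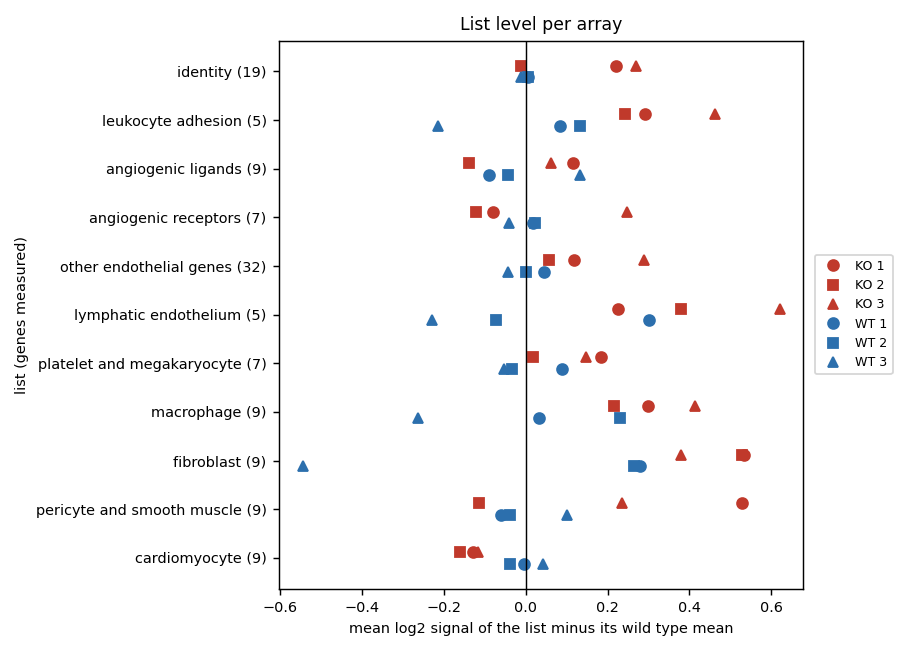
Mean log2 signal of each gene list on each array, as the difference from the wild type mean of the list (horizontal axis), with red knockout and blue wild type symbols and the number of genes measured in brackets. Knockout replicate 3 is the rightmost array for the identity, adhesion and receptor genes, and wild type replicate 3 is leftmost for adhesion, macrophage and fibroblast genes.

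Further genes were read from 4 lists of 91 symbols, of which 88 were measured. The lists hold other endothelial genes, other angiogenic and Notch genes, other leukocyte adhesion and recruitment genes, and hypoxia genes. Of these 88, 2 rose and 0 fell, where 0.322% of all main probe sets rose and 0.227% fell. At an unadjusted p under 0.05, 17 were higher and 3 lower, where 5.19% of all main probe sets were higher and 6.33% lower, and the counts of the single lists are read beside the same shares. Apold1, an immediate early gene of endothelial cells, had 7.76, 7.22 and 7.32 in knockout hearts, against 6.01, 5.70 and 5.57 in wild type hearts, and rose by 1.67 (SE 0.16, adjusted p = 0.00307). It passed with any 1 array left out, at adjusted p-values of 0.00909 to 0.0217. The 10 immediate early genes listed as a sign of handling and stress averaged 6.90 to 7.23 per array in knockout hearts and 5.72 to 6.20 in wild type hearts, with no overlap. All 10 had a positive difference and 4 rose, namely Ier3 by 1.23 (adjusted p = 0.00124), Atf3 by 1.66 (adjusted p = 0.00485), Btg2 by 1.10 (adjusted p = 0.0179) and Egr2 by 2.19 (adjusted p = 0.0444). The 8 heat shock genes, chaperones made under stress, averaged 9.27 to 9.61 per array in knockout hearts and 8.55 to 8.74 in wild type hearts, again with no overlap. All 8 had a positive difference and 2 rose, Hspa1b by 2.33 (adjusted p = 0.00579) and Hspa1a by 2.20 (adjusted p = 0.0429).

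The calls of Ier3, Atf3 and Hspa1b held with any 1 array left out. That of Hspa1a was lost without knockout replicate 1 (adjusted p = 0.143) or wild type replicate 1 (0.104), 2 (0.109) or 3 (0.148). That of Btg2 was lost without knockout replicate 2 (0.0991) or wild type replicate 1 (0.0541) or 2 (0.0719). That of Egr2 was lost without knockout replicate 1 (0.181), 2 (0.196) or 3 (0.101) or wild type replicate 1 (0.0529) or 2 (0.0857). These signs of stress thus moved with the genotype in the same hearts as all endothelial values given here, and their part in those values, Apold1 and Ccl2 included, was not tested.

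Among the 32 other endothelial genes, 7 were higher and 1 lower at an unadjusted p under 0.05, and the median difference was 0.09. The sphingosine phosphate receptor S1pr1, which tightens junctions, was at 0.43 (adjusted p = 0.150) and the endothelial surface protein Ecscr at 0.51 (adjusted p = 0.185). Klf2, a transcription factor induced by blood flow, was at 0.59 (adjusted p = 0.214). Of the 28 other angiogenic and Notch genes 0 passed, with 4 higher and 1 lower at an unadjusted p under 0.05. The chemokine receptor Cxcr4 was at -0.61 (adjusted p = 0.135), the lipase inhibitor Angptl4 at 0.62 (adjusted p = 0.172) and the lymphatic growth factor Vegfd at 0.46 (adjusted p = 0.260).

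Of the 14 other leukocyte adhesion and recruitment genes, 1 rose. Among the 14, 5 had a positive and 9 a negative difference, with a median of -0.02. Ccl2, a chemokine that draws monocytes, had 5.48, 5.79 and 5.91 in knockout hearts, against 4.82, 5.05 and 4.87 in wild type hearts, a rise of 0.81 (SE 0.13, adjusted p = 0.0352). Its call held without knockout replicate 1 (adjusted p = 0.0282) and was lost without any other single array, namely knockout replicate 2 (adjusted p = 0.166), knockout replicate 3 (0.111), wild type replicate 1 (0.0988), wild type replicate 2 (0.0719) and wild type replicate 3 (0.109). The chemokine Cxcl1 was at 0.23 and the integrin Itgal at -0.22 (adjusted p = 0.412 and 0.534). The hypoxia list joins targets induced with Vegfa when oxygen is low and regulators of that response such as Hif1a and Vhl. Its 14 genes measured had a median of 0.15, with 0 past the threshold and 4 higher and 1 lower at an unadjusted p under 0.05. The ankyrin repeat gene Ankrd37 was at 0.52 (adjusted p = 0.0950), the glucose transporter Slc2a1 at 0.69 (adjusted p = 0.0983) and the oxidoreductase Ero1a at 0.41 (adjusted p = 0.150).

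The 5 lymphatic endothelial markers measured went apart. Prox1, the lymphatic identity factor, which cardiomyocytes also make, had 3.43, 3.82 and 3.57 in knockout hearts, against 4.77, 4.21 and 4.57 in wild type hearts. It fell by 0.91 (SE 0.16, adjusted p = 0.0448), a call that held without wild type replicate 2 (adjusted p = 0.0322) and was lost without knockout replicate 1 (0.189), 2 (0.105) or 3 (0.151), or wild type replicate 1 (0.113) or 3 (0.148). In contrast, the hyaluronan receptor Lyve1, which resident macrophages also carry, was at 0.79 (adjusted p = 0.158) and the multimerin Mmrn1 at 1.28 (adjusted p = 0.227).

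Of the pericyte, smooth muscle, endocardial, adipocyte and red blood cell markers, 0 passed by limma, with 3, 0, 0 and 1 at an unadjusted p under 0.05 among pericyte and smooth muscle, endocardial, adipocyte and red blood cell markers. The 9 pericyte and smooth muscle markers had a median of 0.05. The potassium channel subunit gene Abcc9 was at -0.64 (adjusted p = 0.0716). Pdgfrb, Rgs5, Cspg4 and Kcnj8 of the same list were at 0.05, 0.06, -0.08 and -0.09. Which cells the Abcc9 signal came from was not tested. The contractile genes Tagln and Cnn1 were at 0.88 and 1.42 (adjusted p = 0.200 and 0.410), with knockout replicate 1 highest for both. Without that array they were at 0.56 and 0.53. For the 5 endocardial markers, which belong to the lining of the heart chambers, the linear sum was 859, 278 and 270 units in knockout hearts, against 296, 284 and 330 in wild type hearts. On knockout replicate 1 Plagl1 was at 9.05 and Npr3 at 7.01, against at most 6.66 and 5.91 on the other arrays. Nfatc1, Cytl1 and Bmp6 were at 5.66, 6.27 and 6.17 there, against 5.65, 6.19 and 6.13 on the highest wild type array. Knockout replicate 1, the mouse with the highest Plvap and Vwf, thus had the highest sum of this list, through Plagl1 and Npr3 above all, and carried atrial genes. The part of chamber lining and atrial tissue in the Plvap and Vwf values was not tested. Of the 8 atrial genes 1 rose, the natriuretic peptide gene Nppa, which loaded ventricles also make, by 1.19 (adjusted p = 0.0496). That call held without wild type replicate 3 (0.0437) and was lost without knockout replicate 1 (0.202), 2 (0.206) or 3 (0.100) or wild type replicate 1 (0.0756) or 2 (0.0849). Adipocyte and red blood cell markers had 4 genes measured each, with median differences of 0.01 and 0.10. All adipocyte markers measured, and Hba-a1, Slc4a1 and Hemgn of the red blood cell markers, had means below every array median. Their differences therefore say little about the fat or blood content of the samples.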

How the data were processed

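The authors deposited a log2 signal per probe set for 6 arrays, 1 per mouse, made with RMA per the submitters' processing notes, which also name limma. Neither a version nor a setting of either is given in the sources used here. This normalization makes the arrays' distributions alike, so an overall shift between groups is removed. Each array took 400 ng of RNA, per the labels' protocols. Array scans, their dates and detection calls were not analysed here, so scan batch was not tested. The table had 38208 rows, of which 13 control probe sets were left out.

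Platform annotation gave 34325 probe sets 1 symbol, 62 several and 3808 none, and 0 symbols changed through Entrez identifiers in the GRCm38.p6 gene table. The fit was limma 3.58.1 in R 4.3.3 (lmFit, eBayes, two-sided, Benjamini-Hochberg over 38195 probe sets), tested on simulated data. The members, the lists and the rules were chosen with earlier results of these data known. Members with an unadjusted p under 0.05 or groups that do not overlap, and 17 landmark genes whatever their p, are given on every array, as is Aplnr beside Apln. Of other lists, genes past the threshold are named, as are some of those with the smallest p. Some listed genes are not reported here. The series' design text counts 3 mice per genotype as biological samples. The number of arrays limits the precision.

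Alternatives were a replicate block, trended and robust variance priors, weighting of arrays, quantile normalization applied again, centring on array medians, restriction to probe sets with mean signals above the 40th percentile, 1 main probe set for each gene, the mean of a gene's probe sets, its other probe sets, each array left out, and knockout replicate 1 and wild type replicate 3 left out together.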

Additional observations from a re-analysis of the deposited data

How the results depend on the processing

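Under the 16 alternatives that covered the members as a set, 0 of the 40 genes passed in any, and the smallest adjusted p of a member ranged from 0.0574 with the replicate block to 0.372 without both knockout replicate 1 and wild type replicate 3. The members at an unadjusted p under 0.05 numbered 6 to 13. The main fit took no pairing of mice from the replicate numbers. Same-numbered arrays of the 2 genotypes had deviations from their group means correlated at 0.06, 0.14 and 0.02. Differently numbered arrays were not compared, so these values cannot decide whether the mice were paired. The replicate block changed no member's call and gave 168 probe sets past the threshold, against 161 without it. Over all probe sets the count was 38 to 86 with 1 array left out and 29 without both arrays. With 1 probe set per gene it was 102 of the 18029 tested there. The median difference of the adhesion genes was 0.17 without both arrays and 0.24 with the mean of all probe sets, and 0.18 to 0.54 with 1 array left out. Those of the ligands and receptors were -0.10 to 0.10 and -0.02 to 0.10 with 1 array left out, that of the identity genes 0.03 to 0.17, and that of all members 0.03 to 0.14.

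Of 664 member values under alternatives, 34 had the opposite sign, in 15 genes, none of which had passed. With 1 array left out the differences of 13 of these genes spanned 0: Eng (-0.048 to 0.293), Erg (-0.144 to 0.150), Angpt1 (-0.475 to 0.550), Egfl7 (-0.074 to 0.019), Vegfa (-0.178 to 0.084), Vegfb (-0.122 to 0.099), Thbd (-0.0080 to 0.288), Jag1 (-0.051 to 0.120), Notch1 (-0.018 to 0.255), Cav1 (-0.025 to 0.080), Icam2 (-0.00068 to 0.240), Sele (-0.027 to 0.089) and Esm1 (-0.036 to 0.322). Without both arrays Eng was at -0.056, Erg at 0.017 and Vegfb at 0.037. With the mean of all probe sets Erg was at 0.0021, Vegfa at 0.109, Angpt1 at -0.0057 and Jag1 at -0.045. Other probe sets of opposite sign were those of Fabp4 (-0.15), Erg (0.018), Selp (-0.044), Vegfa (0.30), Angpt1 (-0.079) and Jag1 (-0.069 and -0.11). The causes were not tested. Sele and Esm1 were below the percentile filter and have no value there. Signal over background is not given in the table, so fold sizes of the dim genes Sele, Esm1 and Selp are uncertain.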
